A study of Homo sapiens with 6 samples.

Results

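Aminoacyl-tRNA synthetases, the enzymes that join each amino acid to its transfer RNA, were examined together with the scaffold proteins that hold several of them in a complex. The genes were chosen by name, as members of the enzyme family or its scaffolds: 39 genes of the 20345 in the table, some listed there under an older symbol (TARSL2 for TARS3), and all among the 11961 genes that passed the expression filter (at least 1 FPKM, fragments scaled by gene length and library size, in at least 3 of 6 libraries). They comprise 20 genes for enzymes of the cytosol, 16 for enzymes of mitochondria only and 3 for scaffolds. GARS1 and KARS1, which serve both compartments, are counted with the cytosolic genes throughout, and not with the mitochondrial ones. Each gene is counted as an enzyme below, although FARSA and FARSB encode subunits of the same enzyme. RNA came from HEK 293FT cells, derived from human embryonic kidney and expressing SV40 large T, with 3 libraries in each of 2 groups. The first group is titled HEK 293FTGFP-CTRB1 cells and is called CTRB1 cells here; the second is titled HEK 293FTGFP cells, is marked Vec, and is called GFP cells. Both titles carry GFP, green fluorescent protein, and the groups differ in CTRB1, which encodes chymotrypsinogen B1, the precursor of a digestive protease. The labels give no way of introducing CTRB1, no clone and no separate cultures. The spread on which the p-values rest is thus that between libraries, and may be technical.

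Charging of tRNA is the step at which the genetic code is read into protein chemistry: each synthetase recognises an amino acid and its tRNAs and spends ATP to join them. Most amino acids have separate nuclear genes for the cytosolic and the mitochondrial enzyme, with the mitochondrial one imported after translation, while GARS1 and KARS1 each encode both forms. Several cytosolic enzymes are bound with AIMP1, AIMP2 and EEF1E1 in the multisynthetase complex. When tRNA stays uncharged, the kinase GCN2 phosphorylates eIF2alpha, translation of the transcription factor ATF4 increases, and ATF4 activates genes of amino acid supply, a number of synthetase genes among them.

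The libraries held 27514767 to 32522018 counts in CTRB1 cells and 52571457 to 159616285 counts in GFP cells, so every CTRB1 library was shallower than every GFP library, and depth cannot be told apart from the groups. A floor of 3 counts came to 0.0188 to 0.109 CPM (counts over library size, scaled by TMM factors), counting error only, and the lowest member level in any library was 9.66 CPM. Reads counted on CTRB1 numbered 22749, 22161 and 19345 in CTRB1 cells and 1, 0 and 5 in GFP cells. Of the genes fixed as marks of the HEK293 line, NEFM, INA and PAX2 were all measured, at 12.2 to 14.9, 4.75 to 5.89 and 1.82 to 2.07 FPKM in CTRB1 cells and at 11.7 to 12.7, 6.42 to 6.97 and 1.45 to 1.67 FPKM in GFP cells. All of them were called, NEFM and PAX2 higher (log2 changes 0.12 and 0.39) and INA lower (-0.30), and the part of such differences in the results below was not tested. Of 10 markers of fibroblasts, blood, endothelium and keratinocytes, only COL1A1 passed the filter and was called higher (log2 change 0.23; edgeR adjusted p = 0.0331); their summed level was 7.10 to 8.10 FPKM in CTRB1 cells and 6.80 to 7.42 FPKM in GFP cells, and HBB and KRT14 had no count in any library.

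Cytosolic synthetase genes were mostly higher in CTRB1 cells, whereas mitochondrial ones were divided and the scaffolds were not higher. Of the 39 members, 16 were called higher and 8 lower at an adjusted p of 0.05 (edgeR quasi-likelihood test, Benjamini-Hochberg over all genes tested), where 18.6% of all genes tested were called higher, 18.9% lower and 37.4% in either direction. Among the 20 cytosolic enzymes 13 (65%) were called higher and 4 (20%) lower, with a median log2 change of 0.23 against 0.00 over all genes tested. Of the 16 mitochondrial enzymes 3 were called higher and 3 lower, a called share of 37.5% that lies at the background, with a median log2 change of -0.01. No scaffold was called higher and 1 of 3 was called lower. Without GFP replicate 1 the members called lower numbered 4, of which 1 was mitochondrial. The 3 CTRB1 libraries lay wholly above the 3 GFP libraries for 17 members and wholly below them for 10, where 25% of all genes tested did so in each direction.

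**Figure D1:**
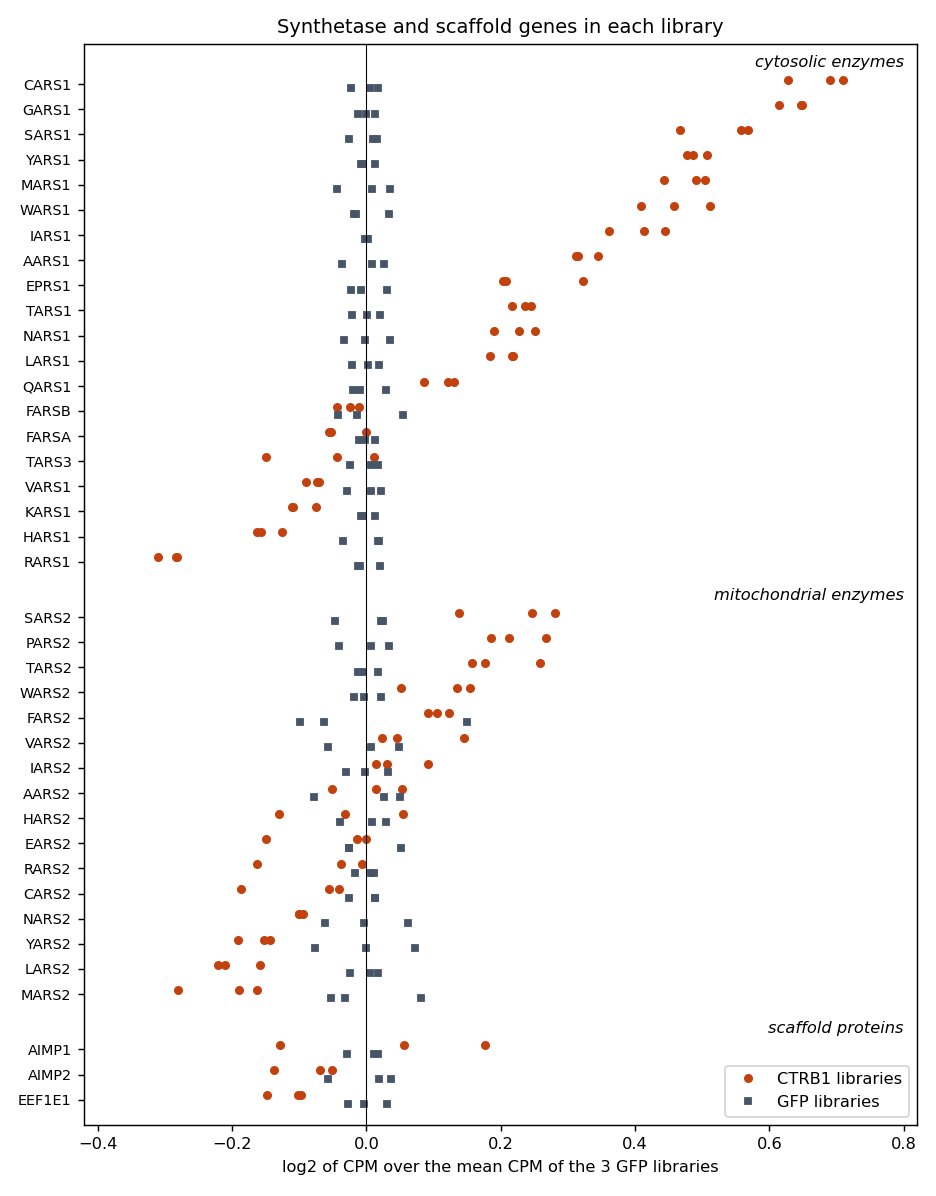
Each row is a gene, each point a library, and the horizontal axis gives log2 of its CPM over the mean CPM of the 3 GFP libraries; round points are CTRB1 libraries and squares GFP libraries. For 13 cytosolic enzymes, from CARS1 down to QARS1, all CTRB1 points lie to the right of all GFP points, while for VARS1, KARS1, HARS1 and RARS1 they lie to the left.

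CARS1, the cysteinyl-tRNA synthetase gene (ENSG00000110619; chromosome 11, positions 3022152 to 3078843, as the table has it, on a build that is not named), had the largest rise of the 39. It stood at 120.1, 127 and 125 CPM in the CTRB1 libraries and 76.5, 78.0 and 78.6 CPM in the GFP libraries. The groups lay far apart, and the log2 change was 0.67 ± 0.0287 (SE; edgeR adjusted p = 5.87e-08). GARS1, for glycine in both compartments (ENSG00000106105; chromosome 7, positions 30634297 to 30673649), had 379.6, 371 and 380.2 CPM in CTRB1 cells against 245, 240.3 and 242 CPM in GFP cells. Its libraries were as tightly grouped, with a 1.56-fold rise (log2 change 0.64 ± 0.0226, SE; edgeR adjusted p = 1.35e-08). SARS1, for serine (ENSG00000031698; chromosome 1, positions 109756540 to 109780791), had 356, 353 and 332 CPM in CTRB1 cells against 242, 241 and 235 CPM in GFP cells, a log2 change of 0.53. CARS1, GARS1 and SARS1 are also the only members that the authors' deposited table marks as up, a mark it gives to 1.66% of the genes tested here.

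YARS1, for tyrosine, whose product is also known to be secreted and cut into fragments that signal to other cells, rose 1.41-fold. Its values were 471, 479 and 469 CPM in CTRB1 cells against 339.8, 335 and 335 CPM in GFP cells (log2 change 0.49 ± 0.0213, SE; edgeR adjusted p = 6.97e-08). MARS1, for methionine, with which every chain begins, had 354, 351 and 339 CPM in CTRB1 cells against 256, 251 and 242 CPM in GFP cells, a 1.40-fold rise. WARS1, for tryptophan and known as an interferon-induced gene, had 233, 224 and 217 CPM in CTRB1 cells against 167, 161 and 161 CPM in GFP cells, a 1.38-fold rise. In each of these genes the lowest CTRB1 library was well above the highest GFP library. By exon positions in GENCODE v29, other genes share 13.3% of the exon bases of MARS1, 10.6% of those of WARS1 and 4.82% of those of YARS1. Whether counting used strand is not known, so reads there cannot be assigned with certainty. IARS1, for isoleucine, had 573, 541 and 560.3 CPM in CTRB1 cells against 421, 421 and 420.1 CPM in GFP cells (1.33-fold). AARS1, for alanine, had 363, 371 and 363 CPM in CTRB1 cells against 294, 298 and 285 CPM in GFP cells (1.25-fold). The edgeR adjusted p was 7.27e-07 for MARS1, 1.57e-06 for WARS1, 8.81e-07 for IARS1 and 5.32e-06 for AARS1.

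The other 5 cytosolic genes that rose did so by smaller amounts. EPRS1, a fused enzyme for glutamate and proline, had 449, 413 and 414 CPM in CTRB1 cells against 366, 353 and 357 CPM in GFP cells. TARS1, for threonine, had 375, 378 and 370.2 CPM in CTRB1 cells against 323, 319 and 314 CPM in GFP cells. NARS1 (asparagine) and LARS1 (leucine, also known as a leucine sensor for mTORC1) had log2 changes of 0.22 and 0.21, beside 0.25 for EPRS1 and 0.23 for TARS1. QARS1, for glutamine, stood at 206, 207 and 201 CPM in CTRB1 cells and 193, 188 and 187 CPM in GFP cells, a log2 change of 0.11 (edgeR adjusted p = 0.00491). The calls of TARS1 and QARS1 were lost where both the unit and the test were others. On the log2(FPKM + 1) scale tested with limma, TARS1 had a log2 change of 0.14 (limma adjusted p = 0.163) and QARS1 of 0.03 (limma adjusted p = 0.668).

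RARS1, for arginine (ENSG00000113643; chromosome 5, positions 167913450 to 167946304), went against most cytosolic enzymes. It had 161, 158 and 162 CPM in CTRB1 cells against 199, 195 and 195 CPM in GFP cells, and its log2 change was -0.29, with an SE of 0.0231 and an edgeR adjusted p of 7.01e-06. HARS1, for histidine, had 127, 131 and 128 CPM in CTRB1 cells against 144, 139 and 144 CPM in GFP cells, a log2 change of -0.15 (edgeR adjusted p = 0.00107). All CTRB1 libraries of both genes lay below all GFP libraries. On the log2(FPKM + 1) scale the log2 change of HARS1 was larger, at -0.30 (limma adjusted p = 0.00682). KARS1, for lysine in both compartments, averaged 202 ± 2.83 CPM in CTRB1 cells against 216 ± 1.73 CPM in GFP cells (SD, n = 3 each), a log2 change of -0.10 with the groups apart. VARS1, for valine, whose product is known to bind elongation factor eEF1, had 190.4, 188 and 191 CPM in CTRB1 cells against 201, 204 and 197 CPM in GFP cells, a log2 change of -0.08 (edgeR adjusted p = 0.0253). Leaving out GFP replicate 1 took the edgeR adjusted p of VARS1 to 0.0804, and leaving out GFP replicate 2 took it to 0.121.

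The 3 cytosolic genes that were not called include both subunits of the phenylalanine enzyme. FARSA, the catalytic alpha subunit, had 176, 182 and 175 CPM in CTRB1 cells and 182, 184 and 181 CPM in GFP cells (log2 change -0.04; edgeR adjusted p = 0.271). FARSB, the beta subunit, had 118, 119 and 116 CPM in CTRB1 cells and 124, 118 and 116 CPM in GFP cells (log2 change -0.02; edgeR adjusted p = 0.54). Both groups overlapped for each subunit, and log2 of FARSA over FARSB CPM was 0.58 to 0.62 in CTRB1 cells and 0.55 to 0.64 in GFP cells. TARS3, a second cytosolic threonine enzyme, had 29.6 to 33.1 CPM in CTRB1 cells and 32.2 to 33.2 CPM in GFP cells, without a call (edgeR adjusted p = 0.385). Its relative TARS1 rose, but the difference between the changes of TARS1 and TARS3 was not tested.

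By structure, synthetases fall into class I and class II, which differ in the fold of the catalytic domain. Of 9 cytosolic class I enzymes, 7 were called higher and 2 lower (RARS1 and VARS1), beside 18.6% and 18.9% of all genes tested, with a median log2 change of 0.41. Of 10 cytosolic class II genes, with the FARSA and FARSB subunits of the phenylalanine enzyme counted separately, 5 were called higher and 2 lower (HARS1 and KARS1). The other 3, both of those subunits among them, were not called, and the median was 0.10. EPRS1, which joins an enzyme of each class, was counted in neither.

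Promoters were compared by a short motif, which was found near the start of 8 members, 7 of them cytosolic genes that rose. The motif searched was TGATGNAA on both strands, a core form of the C/EBP-ATF response element to which ATF4 is known to bind, in the 250 bases before and the 50 bases after each annotated start (RefSeq, GRCh38.p14). The table held entries for 33 of the 39 members. It was found in 7 of the 11 rising cytosolic genes with an entry, in 0 of 5 cytosolic genes that did not rise, in 1 of 14 mitochondrial genes and in 0 of 3 scaffolds. It was found in 3.62% of all promoters of the table, and in 2.57% of tested genes with an entry. The 30-base windows below show the matches, each read on the strand on which the motif runs forward, with the motif in capitals.
AARS1: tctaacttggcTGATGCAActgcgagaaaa
CARS1: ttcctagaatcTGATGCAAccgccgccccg
GARS1: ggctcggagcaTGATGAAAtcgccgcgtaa
IARS1: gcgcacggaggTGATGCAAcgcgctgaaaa
MARS1: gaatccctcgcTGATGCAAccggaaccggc
NARS1: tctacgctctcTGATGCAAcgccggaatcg
TARS1: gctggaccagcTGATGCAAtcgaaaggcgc
YARS2: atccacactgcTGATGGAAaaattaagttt

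The windows lie at chr16:70289675-70289704 (plus strand) for AARS1, chr11:3057407-3057436 (plus) for CARS1, chr7:30594834-30594863 (minus) for GARS1 and chr9:92293692-92293721 (plus) for IARS1. Those of MARS1, NARS1 and TARS1 lie at chr12:57488053-57488082, chr18:57621804-57621833 and chr5:33440956-33440985, and that of YARS2 at chr12:32756076-32756105, all on the minus strand. The match began 2 bases before the annotated start in CARS1, 4 in MARS1, 13 in IARS1, 33 in GARS1 and 187 in AARS1. In TARS1 and NARS1 its first base was base 3 and base 15 of the transcript. Within these windows 6 of the 7 rising genes had the form TGATGCAA, and GARS1 had TGATGAAA. The match in YARS2, a mitochondrial gene that fell, lay 197 bases before its start and had another letter at the variable position. Of 250 tested genes with TGATGNAA, these members included, 80 (32%) were called higher and 24 (9.6%) lower, beside 18.1% and 19.5% of the genes without it. TGATGCAA, a narrower form of it that 6 of the rising members hold, occurred in 0.866% of all promoters. Of 72 tested genes with it, these 6 included, 33 (45.8%) were called higher and 5 (6.94%) lower, beside 18.3% and 19.3% of the genes without it. A match is a description of letters and not a binding site, and nothing about a factor follows from its absence.

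Where the motif lies within the promoter can be seen by setting 2 rising genes beside RARS1, the cytosolic gene that fell most. RARS1 had no match, but neither had the rising genes EPRS1, QARS1, SARS1 and WARS1, and LARS1 and YARS1 had no entry. The stretches are 100 bases long and read along the gene, where the motif runs backward and so appears as its reverse complement, again in capitals. They come from chr9:92293698-92293797 (minus strand) for IARS1, ending at the base before the start, chr16:70289627-70289726 (minus strand) for AARS1, from 220 to 121 bases before the start, and chr5:168486371-168486470 (plus strand) for RARS1, ending at the base before the start.
IARS1: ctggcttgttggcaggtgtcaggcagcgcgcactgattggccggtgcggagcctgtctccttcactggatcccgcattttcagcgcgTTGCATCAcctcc
AARS1: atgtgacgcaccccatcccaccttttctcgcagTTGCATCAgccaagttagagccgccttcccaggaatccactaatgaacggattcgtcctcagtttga
RARS1: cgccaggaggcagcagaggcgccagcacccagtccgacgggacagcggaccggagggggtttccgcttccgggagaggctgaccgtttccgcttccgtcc

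A second motif, GCGC and TGCGC with 1 base of any kind between them, on both strands, the form bound by nuclear respiratory factor NRF1, a regulator of nuclear genes for mitochondria, was searched in the same windows. It was found in 3 of 14 mitochondrial genes (IARS2, MARS2 and PARS2), 3 of 16 cytosolic genes (FARSB, SARS1 and TARS1) and 1 of 3 scaffolds (AIMP2). It occurred in 5.78% of all promoters and in 14.0% of those of tested genes, and the genes of the list that held it were called in both directions or not at all.

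Among the genes for enzymes of mitochondria only, none moved by as much as the leading genes counted as cytosolic. Those leading genes include GARS1, which serves both compartments. TARS2, for threonine, had 133, 124 and 126 CPM in CTRB1 cells against 111, 113 and 111 CPM in GFP cells, a log2 change of 0.20 (edgeR adjusted p = 0.000468). SARS2, for serine, had 40.9, 44.2 and 45.2 CPM in CTRB1 cells against 37.8, 37.8 and 36.0 CPM in GFP cells, a log2 change of 0.22 (edgeR adjusted p = 0.00477). PARS2, for proline and the lowest member by FPKM, had 13.3, 14.1 and 13.6 CPM in CTRB1 cells against 11.4, 11.8 and 12.0 CPM in GFP cells (log2 change 0.22; edgeR adjusted p = 0.0344). In all of these the groups did not overlap, but the calls were not firm. TARS2 and SARS2 lost theirs on the log2(FPKM + 1) scale, at 0.14 (limma adjusted p = 0.0936) and 0.08 (limma adjusted p = 0.365). By exon positions in GENCODE v29, 57% of the exon bases of SARS2 are shared with other genes, and 70.9% of the 100-base windows of its transcript occur in a readthrough gene, so reads may be divided between them.

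PARS2 lost its call in 5 of the 6 fits that left out 1 library, those without CTRB1 replicates 2 or 3 or any GFP replicate, with edgeR adjusted p of 0.0533 to 0.0966. It is also the 1 member whose call differs in the authors' deposited table, where its adjusted p is 0.052; that table puts 15 members higher and 8 lower at 0.05, beside 35.1% of the genes tested here in either direction.

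LARS2, for leucine, had 66.8, 69.3 and 66.3 CPM in CTRB1 cells against 77.6, 76.0 and 78.2 CPM in GFP cells, and its log2 change was -0.20, with an SE of 0.0298 and an edgeR adjusted p of 0.000555. MARS2, for methionine, had 26.1, 27.9 and 28.4 CPM in CTRB1 cells against 33.6, 30.6 and 31.1 CPM in GFP cells, a log2 change of -0.21 (edgeR adjusted p = 0.0116). YARS2, for tyrosine, had 40.5, 39.2 and 40.2 CPM in CTRB1 cells against 44.7, 47.0 and 42.4 CPM in GFP cells, a log2 change of -0.16 (edgeR adjusted p = 0.0229). The 3 genes thus fell while their cytosolic partners rose. Without GFP replicate 1 the edgeR adjusted p was 0.0688 for MARS2 and 0.0715 for YARS2, and YARS2 also missed 0.05 without CTRB1 replicate 2 (0.056) and GFP replicate 2 (0.0855).

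The other 10 mitochondrial genes were not called, with log2 changes from -0.10 (NARS2) to 0.11 (WARS2). IARS2, the mitochondrial gene with the highest FPKM, had 253, 239.9 and 243 CPM in CTRB1 cells and 243, 233 and 237 CPM in GFP cells. AARS2 was level, at 68.1, 71.2 and 73.2 CPM in CTRB1 cells and 66.8, 73.0 and 71.8 CPM in GFP cells (log2 change 0.00 ± 0.0402, SE). CARS2, EARS2, RARS2 and HARS2 had log2 changes of -0.09, -0.05, -0.07 and -0.03, and IARS2, VARS2 and FARS2 of 0.05, 0.07 and 0.11. WARS2 had an edgeR adjusted p of 0.0816, and of 0.034 without CTRB1 replicate 1. VARS2, of whose exon bases 22% are shared with GTF2H4, had an edgeR adjusted p of 0.156 and passed on the log2(FPKM + 1) scale (log2 change 0.14; limma adjusted p = 0.0417).

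Summed over genes, the 20 cytosolic enzymes took 5493, 5432 and 5397 CPM in the CTRB1 libraries and 4562, 4497 and 4461 CPM in the GFP libraries, a ratio of means of 1.21. The 16 mitochondrial enzymes took 1018, 1013 and 999 CPM in the CTRB1 libraries and 1004, 1001 and 995 CPM in the GFP libraries, a ratio of 1.01. The cytosolic sums of the groups lay apart, whereas the mitochondrial sums overlapped.

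**Figure D2:**
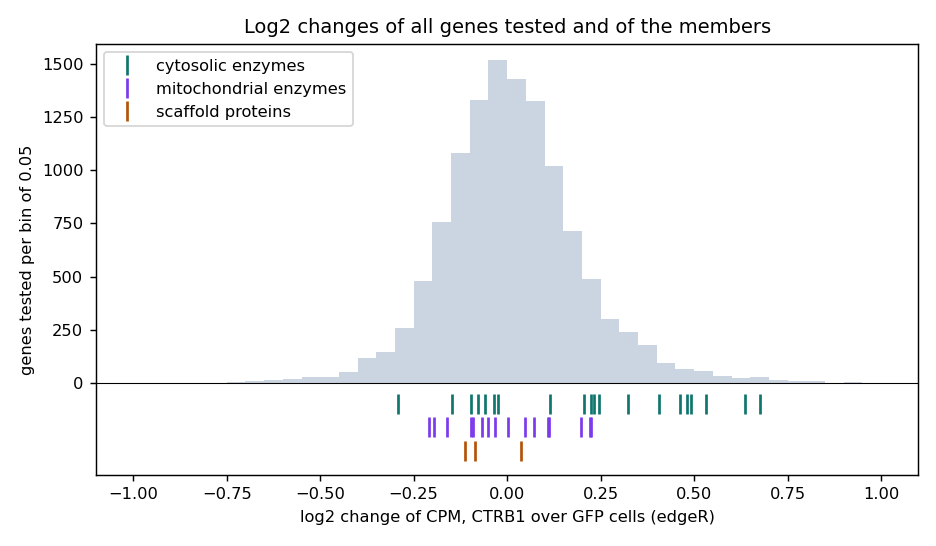
Grey bars count the 11961 genes tested in bins of 0.05 of the edgeR log2 change, CTRB1 over GFP cells, with 50 genes beyond 1 in either direction not drawn; ticks below mark the members. Cytosolic ticks reach from -0.29 to 0.67 with a median of 0.23, and mitochondrial ticks from -0.21 to 0.22 around a median of -0.01.

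The contrast between the compartments was then taken amino acid by amino acid. For 16 amino acids with a gene for each compartment, log2 of the cytosolic over the mitochondrial CPM (0.5 added) was computed in each library. This gave 17 pairs, since phenylalanine has 2 cytosolic subunits. EPRS1 stands in the pairs of both glutamate and proline, and FARS2 in both phenylalanine pairs, so the pairs are not all independent. In 10 pairs every CTRB1 library had a higher ratio than every GFP library, in 3 every CTRB1 library had a lower one, and in 4 the groups overlapped. Of single genes tested, 25% had the groups apart in each direction, and the share for ratios of other gene pairs was not computed. Cysteine differed most: log2 of CARS1 over CARS2 was 1.21, 1.30 and 1.41 in CTRB1 cells against 0.51, 0.53 and 0.58 in GFP cells, a difference of 0.77 ± 0.064 (SE, n = 3 each; exact two-sided permutation p = 0.1). For methionine, log2 of MARS1 over MARS2 was 3.73, 3.63 and 3.56 in CTRB1 cells against 2.91, 3.02 and 2.94 in GFP cells, a difference of 0.69. For tyrosine, log2 of YARS1 over YARS2 was 3.53, 3.60 and 3.53 in CTRB1 cells against 2.91, 2.82 and 2.97 in GFP cells, a difference of 0.65. In these the cytosolic rise and the mitochondrial value on the other side of 0 added up.

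Leucine (0.40), isoleucine (0.36), tryptophan (0.35), asparagine (0.32), alanine (0.32), serine (0.31) and glutamate (0.30) followed, all with ratios apart. The ratio was lower in CTRB1 cells for arginine, with a difference of -0.22, for valine (-0.15) and for the beta subunit of the phenylalanine enzyme (-0.13). For threonine both genes rose: log2 of TARS1 over TARS2 averaged 1.55 ± 0.0547 in CTRB1 cells and 1.51 ± 0.0223 in GFP cells (SD), and the groups overlapped, with a difference of 0.04 ± 0.0341 (SE, n = 3 each; exact permutation p = 0.4). For proline, the difference of EPRS1 over PARS2 was 0.03 (exact permutation p = 0.7), and -0.0251 without CTRB1 replicate 1. Histidine (-0.11) and the alpha subunit for phenylalanine (-0.14) overlapped too (exact permutation p = 0.2 each). The smallest p that 3 against 3 libraries allow is 0.1, and 0.131 after Benjamini-Hochberg adjustment over the 17 pairs, so no pair could pass 0.05.

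**Figure D3:**
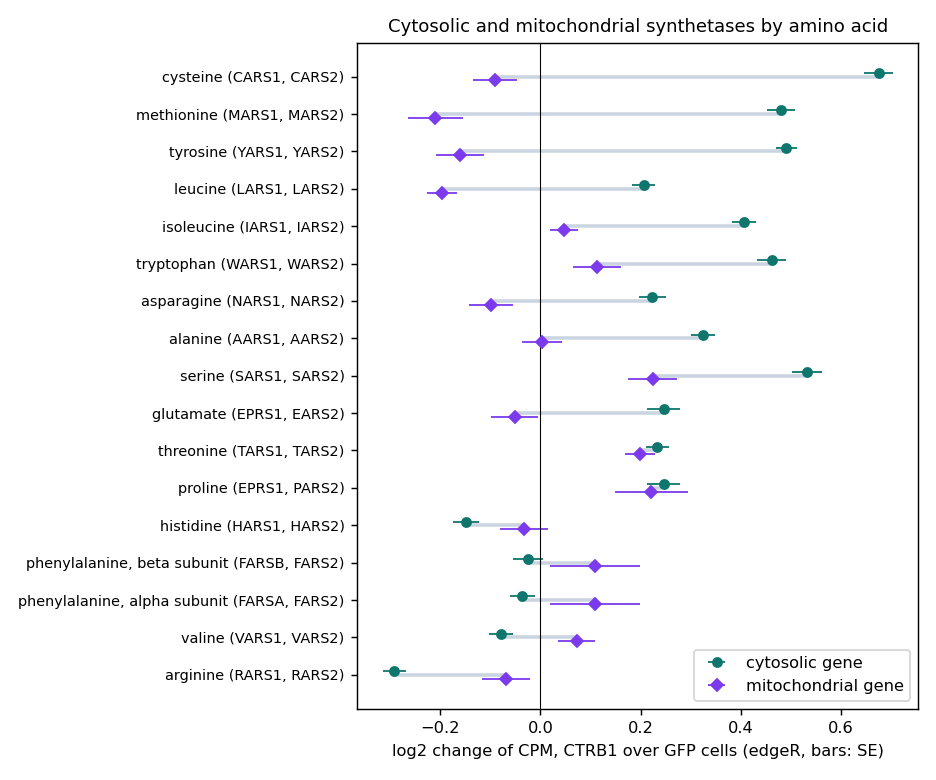
For each amino acid the circle gives the edgeR log2 change of the cytosolic gene and the diamond that of the mitochondrial gene, CTRB1 over GFP cells, with bars for the SE; rows run from the largest to the smallest difference of the ratio. Cysteine stands at 0.67 against -0.09, threonine at 0.23 against 0.20, and arginine at -0.29 against -0.07.

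HARS1 and HARS2 lie head to head. In RefSeq their annotated starts are 85 bases apart on opposite strands of chromosome 5, so the same DNA lies before both. HARS1 fell, as given above, while HARS2 had 49.1, 52.2 and 45.9 CPM in CTRB1 cells and 48.8, 51.2 and 50.5 CPM in GFP cells (log2 change -0.03; edgeR adjusted p = 0.624). Exons of HARS2 overlap those of other genes, HARS1 foremost, over 15.8% of their bases, and no source says whether strand was used in counting, so reads in the overlap cannot be assigned with certainty.

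Levels between genes were compared in the authors' FPKM, which takes gene length into account. In GFP cells the order ran from SARS1, at 170 ± 6.68 FPKM in CTRB1 cells and 119 ± 2.93 FPKM in GFP cells (SD, n = 3 each), down to PARS2, at 4.95 ± 0.115 FPKM in CTRB1 cells and 4.28 ± 0.105 FPKM in GFP cells. The median was 78.5 FPKM in CTRB1 cells and 73.9 FPKM in GFP cells for the cytosolic enzymes, and 16.0 FPKM in CTRB1 cells and 16.5 FPKM in GFP cells for the mitochondrial ones. Of the 38 neighbouring places in the GFP order, 14 were held by genes whose 3 libraries overlapped, among them MARS1, IARS1, GARS1 and RARS1, each overlapping the next, with means of 82.4 to 84.4 FPKM. In CTRB1 cells GARS1 stood at 128 ± 1.36, MARS1 at 115 ± 2.63, IARS1 at 110 ± 3.16 and RARS1 at 68.0 ± 1.34 FPKM (SD, n = 3), and of these only MARS1 and IARS1 still overlapped. In each of the 17 pairs the cytosolic gene had the higher mean FPKM in GFP cells, by 1.05-fold for cysteine up to 15.9-fold for FARSA over FARS2. For cysteine this FPKM ratio was 1.77 in CTRB1 cells and 1.05 in GFP cells.

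**Figure D4:**
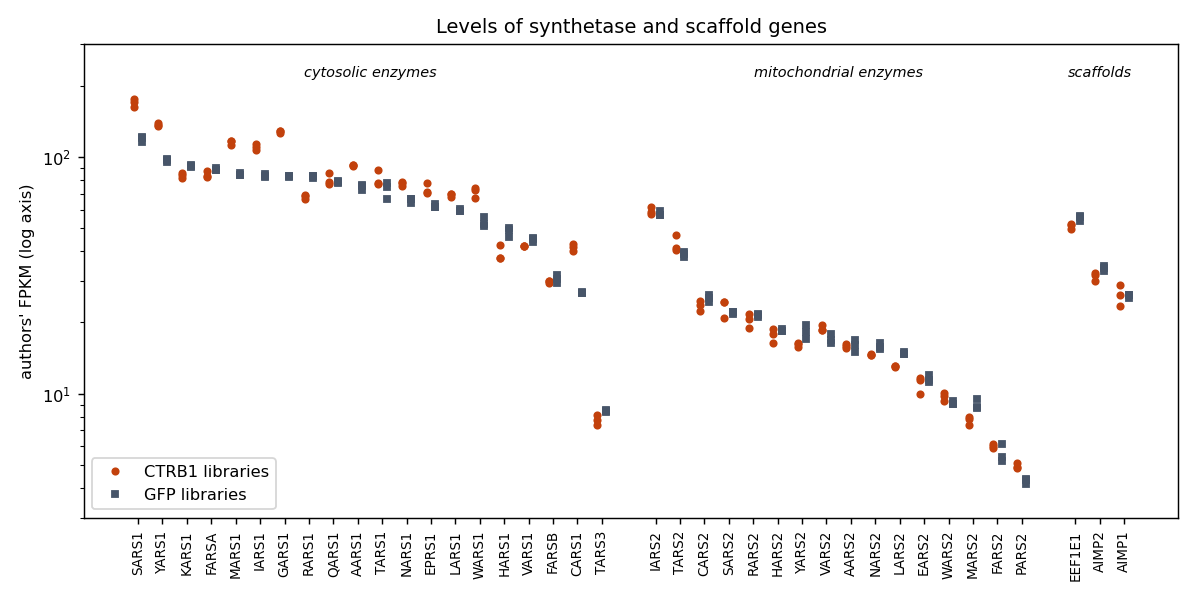
Points give the authors' FPKM of each gene in each library on a log axis, CTRB1 libraries as circles left of the GFP libraries as squares, ordered by the GFP mean within cytosolic enzymes, mitochondrial enzymes and scaffolds. Cytosolic enzymes lie between 8.45 (TARS3) and 119 FPKM (SARS1) in GFP cells and mitochondrial ones between 4.28 (PARS2) and 57.8 FPKM (IARS2).

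Enzymes of the multisynthetase complex changed in both directions. Those on the list are EPRS1, IARS1, KARS1, LARS1, MARS1, QARS1 and RARS1, of which 5 were called higher and 2 lower (KARS1 and RARS1), with a median log2 change of 0.21. The 13 cytosolic enzymes outside the complex had 8 called higher and 2 lower, with a median of 0.23. The shares called higher were 71.4% inside and 61.5% outside the complex, beside 18.6% of all genes tested. Those called lower were 28.6% and 15.4%, beside 18.9%. Within 1 complex the changes thus ran from -0.29 for RARS1 to 0.48 for MARS1. The scaffolds did not rise with them. AIMP1, which docks the arginine enzyme, had 70.5, 80.1 and 87.1 CPM in CTRB1 cells and 75.5, 77.7 and 77.9 CPM in GFP cells, so the CTRB1 libraries spread on both sides of the GFP libraries (log2 change 0.04; edgeR adjusted p = 0.639, and 0.0415 with a log2 change of 0.12 without CTRB1 replicate 1).

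AIMP2, the core scaffold, had 43.5, 41.5 and 44.1 CPM in CTRB1 cells and 46.9, 43.9 and 46.3 CPM in GFP cells (log2 change -0.09; edgeR adjusted p = 0.15). Of its exon bases, 28.9% are shared with EIF2AK1. EEF1E1, also called p18, had 59.9, 60.1 and 58.0 CPM in CTRB1 cells against 65.7, 64.1 and 63.0 CPM in GFP cells, a log2 change of -0.11 (edgeR adjusted p = 0.0186). Leaving out CTRB1 replicate 3 (edgeR adjusted p = 0.0507) or GFP replicate 1 (0.062) ended its call, and 30.6% of the 100-base windows of its transcript also occur in a readthrough gene. Summed over the 3 scaffolds the level was 174, 182 and 189 CPM in CTRB1 cells and 188, 186 and 187 CPM in GFP cells, with no separation.

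The genes around tRNA charging were read from lists written with earlier results of these data known. Of 18 genes that partner the synthetases or deliver charged tRNA, 4 were called higher and 4 lower, or 22.2% each, close to the 18.6% and 18.9% over all genes tested, with a median log2 change of 0.03. XPOT, the exporter of tRNA from the nucleus, had 446, 432 and 459 CPM in CTRB1 cells against 307, 301 and 306 CPM in GFP cells, a log2 change of 0.55 (edgeR adjusted p = 1.69e-07) that lies among those of the leading synthetases. SEPSECS, which makes selenocysteine on its tRNA, rose by 0.43 on the log2 scale, EEF1G, a subunit of the exchange factor that recycles the elongation factor eEF1A, by 0.29, and EEF1A1, which brings charged tRNA to the ribosome, by 0.11. GATC and QRSL1 (-0.32 and -0.14), subunits of the mitochondrial enzyme that makes glutaminyl-tRNA, SEPHS2 (-0.20), of selenium supply, and TSFM (-0.17), a mitochondrial elongation factor, fell.

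Of 15 genes of tRNA maturation, 2 (13.3%) were called higher and 6 (40%) lower, beside 18.6% and 18.9% of all genes tested, with a median log2 change of -0.07. TSEN15, which encodes a subunit of the tRNA splicing endonuclease, rose by 0.43 on the log2 scale. The genes that fell were CLP1 (-0.31), of tRNA splicing, TRMT10C (-0.31) and HSD17B10 (-0.07), of mitochondrial tRNA processing, ELAC2 (-0.22), which trims the tail of the tRNA precursor, and POP4 (-0.20) and RPP30 (-0.18), of ribonuclease P. A further list of 12 genes covered GCN2 and the response around eIF2alpha. It also held the other eIF2alpha kinase genes EIF2AK1, EIF2AK2 and EIF2AK3, none of them called, so it is not particular to uncharged tRNA. Of the 12 genes, 5 (41.7%) were called higher and 1 (8.33%) lower. EIF2AK4, which encodes GCN2, had 83.9, 82.2 and 78.1 CPM in CTRB1 cells and 80.2, 80.1 and 81.7 CPM in GFP cells (log2 change 0.01; edgeR adjusted p = 0.788), and its partner GCN1 was not called either (log2 change -0.02). EIF2S1, the gene of eIF2alpha, fell by 0.29 on the log2 scale. ASNS (log2 change 1.25), TRIB3 (0.51), ATF4 (0.50), DDIT3 (0.50) and PPP1R15A (0.12) were the ones called higher.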

How the data were processed

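One deposited table was used. Its read counts per gene, deposited by the authors, are raw by the file headers, and its FPKM and TPM are the authors' own; TPM was not used here. The authors' log2 fold change and p-values (tool not given in the sources used here) are printed only where named. The authors' mean signal per group (mean counts, deposited) was not used. Per the submitters' processing notes, HTSeq 0.6.1, HISAT2 2.2.1 and cutadapt 1.9.1 were among the tools (roles not stated); the build listed there, GRCm38.p5, is of mouse, although the gene identifiers are human, so coordinates from the table carry no build. No source says whether counting used strand.

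Counts were tested with edgeR 4.0.16 in R 4.3.3 (TMM factors, quasi-likelihood F test, both groups in 1 model, no covariates, Benjamini-Hochberg adjustment over 11961 genes, threshold 0.05); the SE is the log2 change over the square root of F. Ratios between 2 genes were compared with exact permutation tests over libraries. Alternatives were DESeq2 1.42.0, DESeq2 size factors, other filters, limma 3.58.1 on log2(FPKM + 1) and log2(FPKM + 0.1), a replicate block and leaving out each library. Shared exons and windows come from GENCODE v29, promoter sequence from RefSeq (GRCh38.p14). All members are named; the members, lists and motifs were chosen with earlier results of these data known. NEFL and PECAM1 were not analysed here. The values of 1 gene of the tRNA maturation list are not reported here. Depth was 27514767 to 159616285 counts per library.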

Additional observations from a re-analysis of the deposited data

How the results depend on the processing

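Of the 13 cytosolic enzymes called higher, 11 kept direction and call in all 14 alternatives, the exceptions being QARS1 and TARS1; of the 4 called lower, 3 did, VARS1 being the exception. Of the 6 mitochondrial enzymes called, only LARS2 did. The fits of log2(FPKM + 1) and of log2(FPKM + 0.1) each called 1250 genes higher, against 2221, with 39.2% of calls higher, against 49.6%; the cause was not tested. With FPKM rescaled by median of ratios, chosen after seeing the data, the share was 46.8% and 1 cytosolic enzyme outside the complex was called lower, against 2. Leaving out 1 library gave 3334 to 4390 called genes, 15 to 18 members called higher and 4 to 8 lower, among them 1 to 3 mitochondrial enzymes and 1 to 2 cytosolic enzymes outside the complex called lower; such fits have fewer samples. The counts of 4 members and 1 mitochondrial enzyme came without GFP replicate 1, and that of 1 cytosolic enzyme outside the complex without GFP replicate 1 or 2. PARS2 was not called without an expression filter (edgeR adjusted p = 0.0957), and it was absent from the fit of genes with a mean FPKM of at least 5, where WARS2 was called (edgeR adjusted p = 0.045).

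The values that changed sign belonged to genes and a pair not called with all libraries; AIMP1 was called without CTRB1 replicate 1 (edgeR adjusted p = 0.0415). The log2 change of AARS2 (0.00) was -0.00402 without a filter and -0.00645 and -0.00675 on log2(FPKM + 1) and log2(FPKM + 0.1). Over the leave-one-out fits it ran from -0.0321 to 0.0310, that of HARS2 from -0.0793 to 0.0121, that of AIMP1 from -0.0337 to 0.115 and that of FARSB from -0.0467 to 0.00247. The difference of EPRS1 over PARS2 ran from -0.0251 to 0.0736 over the same fits and was 0.0829 with log2(CPM + 5).

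Deviations from the mean of each group were correlated, so positive values for some combinations of libraries force negative ones for others. Same-numbered libraries of the groups did not deviate together (correlations over genes of -0.0771, -0.0775 and -0.134). Of the other combinations, CTRB1 replicates 1, 2 and 3 correlated with GFP replicates 3, 1 and 2 at 0.197, 0.135 and 0.177, and the rest were negative; no label pairs these libraries, and no such block was fitted. With the replicate block 1 member changed its call, PARS2 (edgeR adjusted p = 0.0591).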
